A study of Rattus norvegicus with 6 samples.

Results

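*Baz2b* and its relatives among the BAZ, ISWI, SWI/SNF and CHD chromatin remodellers were followed in pancreatic islets of 3-month-old and 12-month-old rats. The 10 genes were *Baz1a*, *Baz1b*, *Baz2a*, *Baz2b*, *Smarca2*, *Smarca4*, *Smarca5*, *Smarcc1*, *Arid1a* and *Chd4*. They were chosen as the family of *Baz2b*, which was itself selected on the measured values: it had one of the largest rises between the ages on these same arrays. Its age difference is therefore given as a description, with no test. Of the 10 genes, 5 were matched to a probe through its RefSeq accession (*Baz2a*, *Baz2b*, *Smarca2*, *Smarca4* and *Smarca5*), each by 1 probe, out of 13903 genes matched on the array. All 5 passed the filter on dim probes, so that they were among 11201 genes tested. *Baz1a*, *Baz1b*, *Smarcc1*, *Arid1a* and *Chd4* were matched to no probe and were not analysed here; *Arid1a* is among the genes in the study's own tables of changed genes.

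The islets came from male Wistar rats, 3 of each age by the series' own design, and were freed from the pancreas by collagenase digestion. Total RNA was labelled with the dye Cy3 and hybridised to 1-colour Arraystar/Agilent expression arrays, with 3 arrays of 12-month and 3 arrays of 3-month islets. The labels name no treatment or genotype other than the strain, and they do not say whether an array held the RNA of 1 rat or of several. Each age was scanned on its own, so that age and scan cannot be told apart.

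Chromatin remodellers are ATP-driven machines that slide, eject or exchange nucleosomes and so set which stretches of DNA are open to transcription factors, polymerases and repair enzymes. The ISWI motor SMARCA5 works with a BAZ partner that carries a bromodomain, a module that binds acetylated histone tails, whereas the SWI/SNF motors SMARCA2 and SMARCA4 each drive the large BAF complexes. In beta cells, BAF complexes are known as partners of the transcription factor PDX1.

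The DNA just before the start of *Baz2b* is shown because *Baz2b* carries the largest age difference of the family, and that of *Baz2a*, its closest paralog, for comparison. The 250 bases before the RefSeq start of each gene on assembly GRCr8 run 5′ to 3′ on the strand of the gene, and capitals mark each CG, the dinucleotide at which mammalian DNA is methylated. The *Baz2b* stretch is chr3:65034548-65034797 on the minus strand and that of *Baz2a* is chr7:1112573-1112822 on the plus strand.
Baz2b: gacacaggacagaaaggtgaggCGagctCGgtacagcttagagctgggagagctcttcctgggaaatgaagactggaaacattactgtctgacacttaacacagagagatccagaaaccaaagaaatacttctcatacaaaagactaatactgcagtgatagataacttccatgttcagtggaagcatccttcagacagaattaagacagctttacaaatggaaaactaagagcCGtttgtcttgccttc
Baz2a: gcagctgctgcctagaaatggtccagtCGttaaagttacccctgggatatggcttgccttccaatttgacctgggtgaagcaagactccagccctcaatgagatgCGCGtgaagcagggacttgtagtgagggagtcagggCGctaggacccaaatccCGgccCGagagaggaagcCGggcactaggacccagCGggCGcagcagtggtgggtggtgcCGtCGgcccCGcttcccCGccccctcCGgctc
The 250 bases before *Baz2b* hold 3 CG and those before *Baz2a* hold 14.

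Windows of 300 bases, from 250 before to 50 after the RefSeq start, were then counted for 27457 genes. The letters CG were searched; they read the same on both strands and do not overlap one another, and 94.8% of all windows held at least 1. The *Baz2b* window held 4 CG at a GC content of 44.7%, against a median of 7 CG (quartiles 3 and 20) and 52.3% GC over all windows. Of all windows, 36.2% held at most 4. The other genes of the family with a window, all but *Baz1a*, held more. *Baz2a* held 18, *Smarca4* 27, *Smarca2* 29 and *Smarca5* 52 CG, and 99.5% of all windows held fewer than that of *Smarca5*. *Baz1b*, *Chd4*, *Smarcc1* and *Arid1a* held 26 to 39. Of 84 windows found for 103 other genes of remodelling and bromodomain proteins, listed by complex further on, the median was 24 and 5 windows held at most 4. These counts describe the letters around 1 annotated start of each gene and no methylation was measured.

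**Figure D1:**
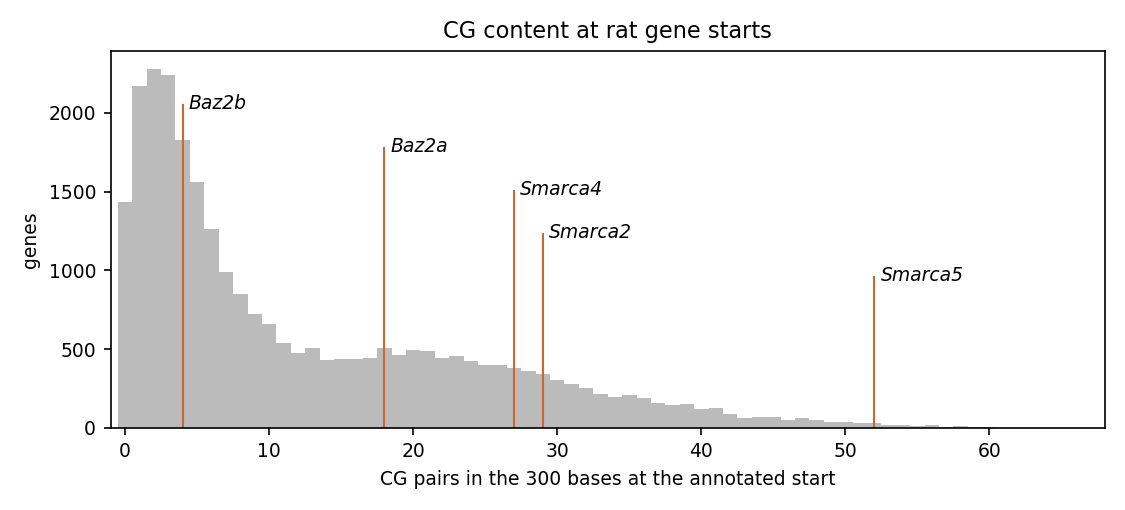
Number of CG dinucleotides in the 300 bases around the RefSeq start of each gene (x axis, count) against the number of genes (y axis), for 27457 genes; vertical lines mark the genes of the *Baz2b* family. *Baz2b* lies at 4, below the median of 7, and *Baz2a*, *Smarca4*, *Smarca2* and *Smarca5* lie at 18, 27, 29 and 52.

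Levels and age differences that follow are log2 of the background-subtracted signal after quantile normalization, and 1 unit is a doubling. Exceptions are named as signal units, summed levels or alternative settings. A level is read only against the same probe on other arrays. The hormone genes that define islets (*Ins1*, *Ins2*, *Gcg*, *Sst*, *Ppy* and *Iapp*) were well above background on all 6 arrays, and so were all 9 acinar genes with a probe. Between 59.5% and 64.2% of probes were well above background on the 12-month arrays, against 73.1% to 77.5% on the 3-month arrays. Negative control spots had a median of 89.5 to 91.0 signal units at 12 months and 29.5 to 31.0 at 3 months, and no probe was saturated. The median age difference over all genes tested was -0.13, with 4871 of 11201 genes (43.5%) higher at 12 months. With limma at an adjusted p under 0.05, 880 of them (7.86%) differed between the ages, 546 (4.87%) higher and 334 (2.98%) lower at 12 months, so that 62.0% of calls were higher, against 44.7% of 1013 calls when each array was shifted to its 75th percentile.

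*Baz2b* encodes a bromodomain protein that serves as a regulatory partner of ISWI motors. Its normalized log2 level was 8.19, 8.76 and 8.24 on the 12-month arrays 1, 2 and 3, and 2.36, 3.49 and 3.03 on the 3-month arrays 1, 2 and 3. The 12-month arrays were all high and the 3-month arrays all low, and the lowest 12-month level was 4.70 above the highest 3-month level. The scanner signals before normalization were 599.7, 696.0 and 300.4 units at 12 months and 2.11, 11 and 8.38 units at 3 months. The ages lay apart on that scale too, which also holds differences in brightness between arrays. The 75th percentile of all spots was 733.4 to 1608.5 units on the 12-month arrays and 224.7 to 874.9 on the 3-month arrays.

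*Baz2b* averaged 8.40 ± 0.32 in 12-month islets and 2.96 ± 0.57 in 3-month islets (means ± SD, n = 3 each), a difference of 5.44 (SE 0.35) or 43.4-fold. The probe was well above background on 3 of 3 arrays at 12 months and on 1 of 3 at 3 months, array 2. The 3-month level thus lay at the edge of detection, where the lowest level well above background was 2.89 to 3.17 on the 3-month arrays, against 4.26 to 5.13 on the 12-month arrays. With 3-month values under that edge raised to it, the 3-month mean was 3.23 and the difference 5.17, or 36.0-fold. This moved array 1 only. Array 3, at 3.03, was not well above background but lay over its edge of 2.89, so 36.0-fold is not a lower bound. With another background correction, normexp, which pulls dim values together, the difference was 2.46. In RNA of whole islets, a lower level can come from fewer cells of a type or from less RNA per cell, and these cannot be told apart.

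None of the 4 relatives with a matched probe passed an adjusted p of 0.05 with limma, where 7.86% of all genes tested did, and 0 of 4 had an unadjusted p under 0.05. With the methods' t-test likewise 0 of 4 passed after adjustment, beside 2.4% of all genes, and 1 of 4 before it. The share of all genes at an unadjusted p under 0.05 alone was not counted. Counts at that threshold, here and further on, therefore have no background beside them and are descriptions only. Their median age difference was -0.14 beside -0.13 over all genes tested. The values of 2 of the 4 did not overlap between the ages, 1 higher and 1 lower at 12 months, where 39.4% of all genes tested did not overlap. These counts cover 4 of 9 relatives and leave out *Arid1a*.

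*Baz2a* encodes the closest paralog of BAZ2B, the TIP5 subunit of the nucleolar remodelling complex NoRC, which silences ribosomal RNA genes. Its level was 6.98, 7.04 and 6.65 on the 12-month arrays 1, 2 and 3, and 6.14, 7.43 and 6.95 on the 3-month arrays 1, 2 and 3. The ages overlapped, since the 3-month arrays held both the lowest and the highest value. The means were 6.89 ± 0.21 and 6.84 ± 0.65 (SD, n = 3 each). The difference of 0.05 (95% confidence interval -0.82 to 0.92; limma adjusted p = 0.934) turned to -0.22 when each array was shifted to its 75th percentile. It was -0.30 without 3-month array 1 and -0.03 without 12-month array 2. The probe was well above background on all 6 arrays, as were those of *Smarca2*, *Smarca4* and *Smarca5*.

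*Smarca5* encodes SNF2H, the ISWI motor that BAZ proteins partner. Its level was 10.91, 11.32 and 10.98 on the 12-month arrays 1, 2 and 3, and 11.05, 11.05 and 12.07 on the 3-month arrays 1, 2 and 3. A single array, 3-month array 3, stood above the others, and the ages overlapped. The means were 11.07 ± 0.22 and 11.39 ± 0.59 (SD, n = 3 each), a difference of -0.32 (95% confidence interval -1.15 to 0.50; limma adjusted p = 0.535). Without 3-month array 3 the difference was 0.02.

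*Smarca2* encodes BRM, one of the alternative SWI/SNF motors. Its level was 13.94, 14.09 and 13.58 on the 12-month arrays 1, 2 and 3, and 13.50, 13.26 and 13.42 on the 3-month arrays 1, 2 and 3. Every 12-month array was above every 3-month array, though the nearest values almost met. The means were 13.87 ± 0.26 and 13.40 ± 0.12 (SD, n = 3 each), a difference of 0.48 or 1.39-fold (95% confidence interval -0.10 to 1.05; limma adjusted p = 0.216). It was 0.15 when each array was shifted to its 75th percentile.

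*Smarca4* encodes BRG1, the other SWI/SNF motor. Its level was 13.31, 13.02 and 13.59 on the 12-month arrays 1, 2 and 3, and 13.63, 13.65 and 14.06 on the 3-month arrays 1, 2 and 3. Every 12-month array was below every 3-month array, and here too the nearest values almost met. The means were 13.31 ± 0.28 and 13.78 ± 0.25 (SD, n = 3 each), a difference of -0.47 (95% confidence interval -1.11 to 0.16; limma adjusted p = 0.252). The estimates for both motors thus had opposite signs, and neither passed the test; the difference between them was not tested. Over the alternative settings *Smarca4* ranged from -0.78 to -0.33 and *Smarca2* from 0.15 to 0.63.

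**Figure D2:**
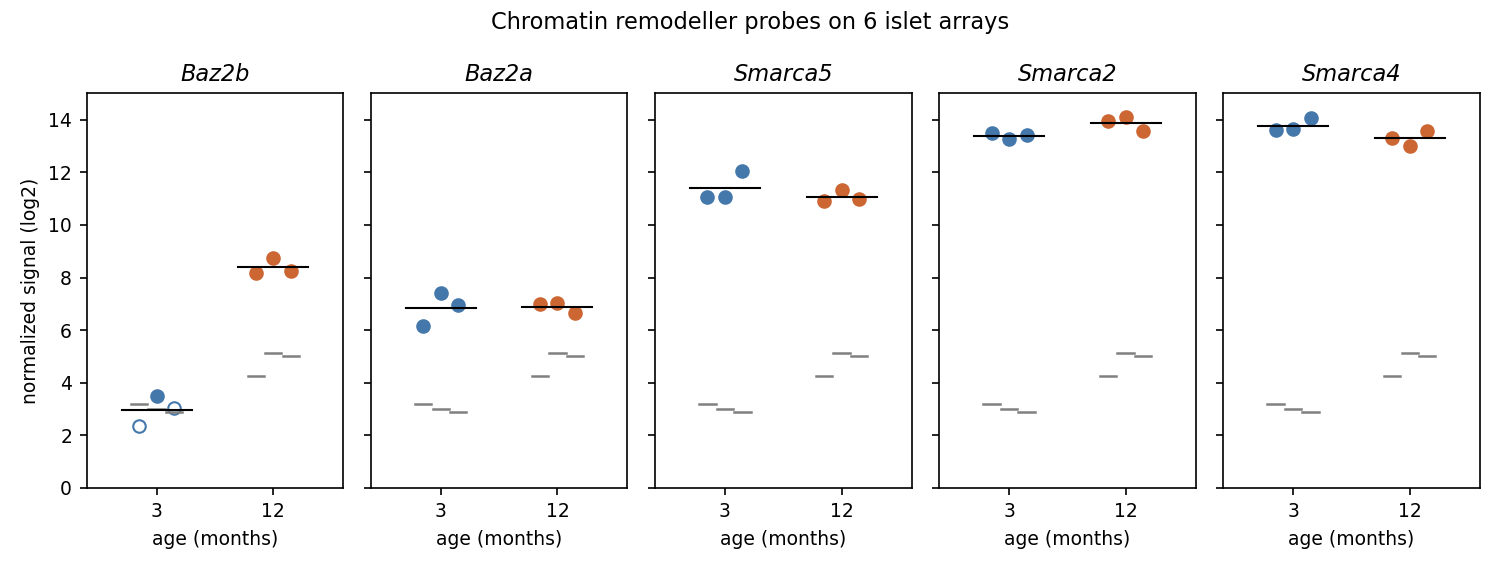
Normalized log2 signal (y axis) of *Baz2b*, *Baz2a*, *Smarca5*, *Smarca2* and *Smarca4* on the 3 arrays of 3-month and the 3 arrays of 12-month islets; points are arrays, filled where the probe was well above background and open where it was not, black lines are means of the 3 arrays, and short grey lines give the lowest level well above background on each array. *Baz2b* lies at 2.36 to 3.49 at 3 months, open on 2 arrays, and at 8.19 to 8.76 at 12 months, while the other genes differ by less than 1 log2 unit in their means.

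**Figure D3:**
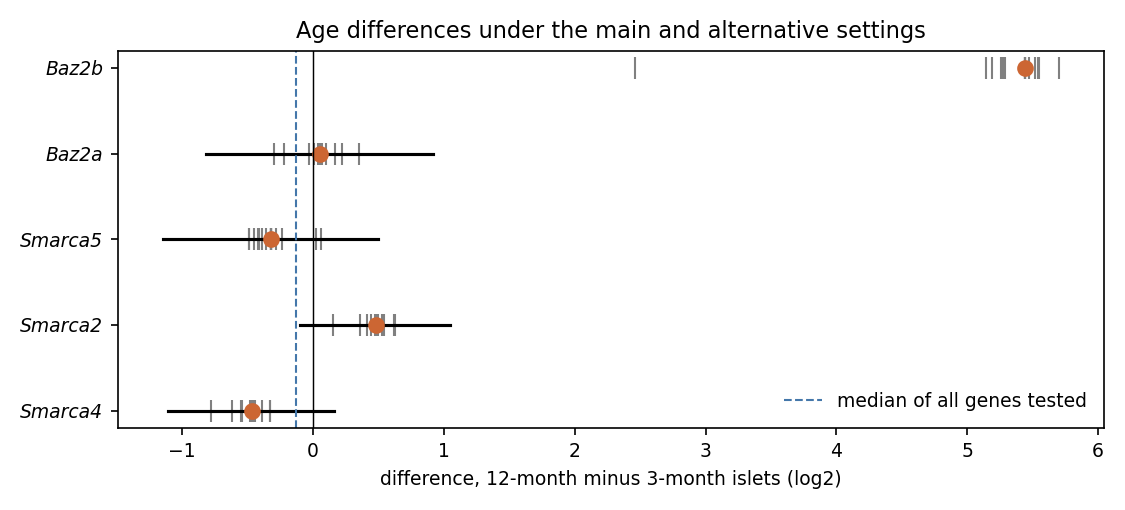
Age difference (x axis, 12-month minus 3-month log2 signal) of the 5 genes with a probe, with 95% confidence intervals from limma (black bars) for the 4 relatives and none for *Baz2b*, whose rise chose the family; grey ticks are the values under the alternative settings and the dashed line is the median of all genes tested, -0.13. *Baz2b* lies at 5.44 and the 4 relatives at -0.47 to 0.48, each with an interval that includes 0.

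The 5 genes whose levels ran most like *Baz2b* over the 6 arrays, out of 11147 genes, were *Gnai1* (Pearson r = 0.9989), *Cnot6l* (0.9983), *Cdkn2aip* (0.9973), *Chac2* (0.9972) and *Tceal1* (0.9968). All 5 were higher at 12 months, *Cnot6l*, *Cdkn2aip*, *Chac2* and *Tceal1* by 2.21 to 3.83 log2 units. *Gnai1* was at 2.80 on average at 3 months, where its probe was well above background on 1 of 3 arrays, so that the size of its difference is limited by detection. The 6 points are 2 ages in 2 scans, so a high r mainly records a large step between the ages. Of the relatives, the same measure was 0.808 for *Smarca2*, 0.189 for *Baz2a*, -0.371 for *Smarca5* and -0.751 for *Smarca4*.

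The other remodelling genes were taken from lists by complex, 103 genes in all, of which 66 had a matched probe and 61 were tested. *Dpf1*, *Ss18l1*, *Chd2*, *Ttf2* and *Brpf3* had a probe that did not pass the filter. With limma, 4 of 61 genes (6.56%) passed an adjusted p of 0.05, all 4 higher at 12 months, beside 7.86% of all genes tested. In all, 37 were higher and 24 lower, with a median difference of 0.13 that was -0.03 when each array was shifted to its 75th percentile. The values of 22 of 61 (36.1%) did not overlap between the ages, 15 of them higher, beside 39.4% of all genes tested. The count of 4 was 0 without 12-month array 1, without 3-month array 1 or without 3-month array 3, where 1.08%, 1.55% and 2.29% of all genes passed. It was 1 without 12-month array 3, where 1.35% of all genes passed, and 0 with the arrays blocked by replicate number, where 0.411% did. In these settings the calls of the wider lists fell together with those of all genes. The count was 5 without 12-month array 2 or without 3-month array 2, where 10.2% and 5.44% of all genes passed.

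Of the partners and relatives of ISWI, 5 of 8 genes were tested, 2 higher and 3 lower. With limma 0 passed, beside 7.86% of all genes tested, and 1 had an unadjusted p under 0.05. *Rbbp7*, a histone chaperone subunit of several complexes, was at 15.43, 15.58 and 15.29 on the 12-month arrays 1, 2 and 3 and at 14.72, 14.82 and 14.85 on the 3-month arrays. Its ages did not overlap, and its difference was 0.64 (limma adjusted p = 0.104). *Pole3*, a histone-fold subunit of the CHRAC complex, overlapped between the ages, with a difference of -0.61 (limma adjusted p = 0.253).

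Of the other SWI/SNF subunits, 13 of 26 were tested, 6 higher and 7 lower. With limma 0 passed, beside 7.86% of all genes tested, and 1 had an unadjusted p under 0.05. *Phf10*, a PBAF subunit, was at 11.92, 11.64 and 12.21 on the 12-month arrays and at 10.91, 11.55 and 11.01 on the 3-month arrays. Its ages did not overlap, and its difference was 0.76 (limma adjusted p = 0.123). *Smarcb1*, a core subunit, was at 11.10, 11.23 and 11.38 on the 12-month arrays and at 11.90, 11.62 and 11.71 on the 3-month arrays. Its difference was -0.51 (limma adjusted p = 0.172). The list's median was -0.04 and took either sign when single arrays were left out.

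Of the other CHD motors and NuRD subunits, 12 of 18 were tested, 7 higher and 5 lower. With limma 1 passed (8.33%, beside 7.86% of all genes tested), and 1 had an unadjusted p under 0.05. Among those lower, *Mta3* and *Hdac2* were well above background on 0 of 3 arrays at 12 months and 3 of 3 at 3 months. They passed the filter only through the 3-month arrays, so that their differences are limited by detection. *Chd1*, a motor at the start and along the body of transcribed genes, was at 5.69, 6.45 and 5.46 on the 12-month arrays and at 2.79, 3.73 and 3.16 on the 3-month arrays. The ages lay apart, with a difference of 2.64 (SE 0.37; limma adjusted p = 0.0139). The probe was dim, well above background on 2 of 3 arrays at 12 months and 1 of 3 at 3 months, and with normexp the difference was 0.71 (limma adjusted p = 0.0508). The list's median was 0.10, and -0.21 when each array was shifted to its 75th percentile.

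Of the INO80 subunits and other SNF2 motors, 16 of 26 were tested, 9 higher and 7 lower. With limma 1 passed (6.25%, beside 7.86% of all genes tested), and 5 had an unadjusted p under 0.05. *Hltf*, a SNF2-type translocase of damaged replication forks, was at 11.10, 11.17 and 11.04 on the 12-month arrays and at 9.0, 9.97 and 8.29 on the 3-month arrays. The 12-month arrays lay close together and above the scattered 3-month arrays, with a difference of 2.02 (SE 0.43; limma adjusted p = 0.0383). The list's median was 0.03.

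Of the other bromodomain proteins, 15 of 25 were tested, 13 higher and 2 lower, where 43.5% of all genes tested were higher. With limma 2 passed (13.3%, beside 7.86% of all genes tested), and 7 had an unadjusted p under 0.05. *Kmt2a*, a histone H3 methyltransferase, was at 11.53, 12.07 and 11.31 on the 12-month arrays and at 9.56, 10.44 and 9.45 on the 3-month arrays, a difference of 1.82 (SE 0.36; limma adjusted p = 0.0325). *Atad2*, an AAA+ ATPase with a bromodomain, was at 8.95, 8.82 and 8.99 on the 12-month arrays and at 7.40, 7.97 and 7.57 on the 3-month arrays, a difference of 1.27 (SE 0.25; limma adjusted p = 0.0305). Both lay apart between the ages on every array. The list's median was 0.65, and 0.38 when each array was shifted to its 75th percentile, beside -0.13 and -0.34 over all genes tested.

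**Figure D4:**
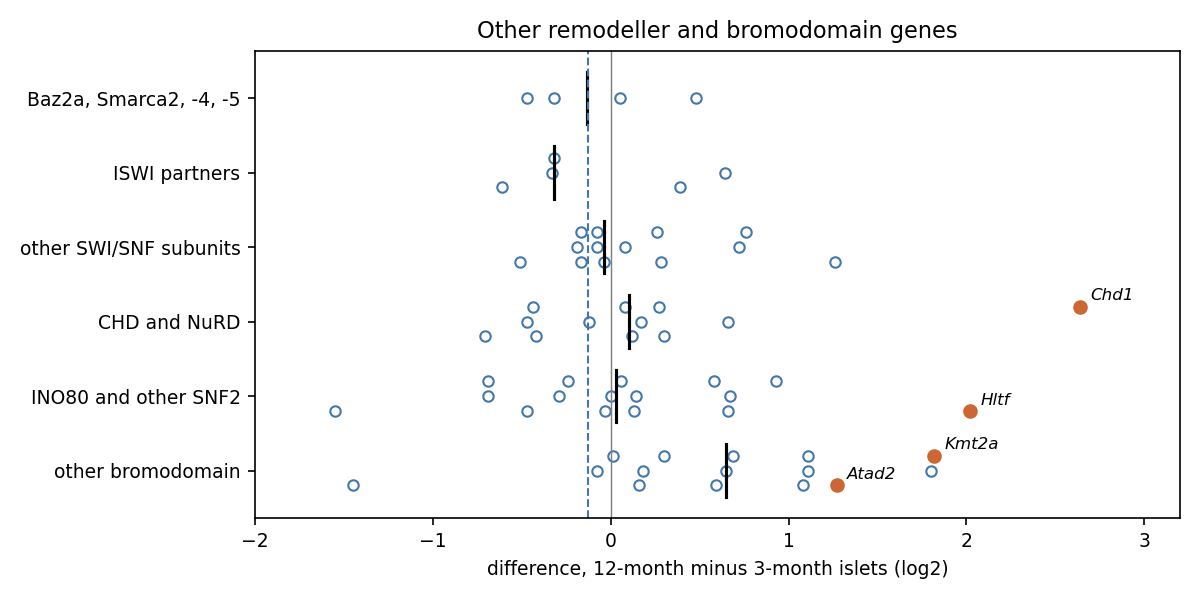
Age difference (x axis, 12-month minus 3-month log2 signal) of 61 tested genes in 5 lists of remodelling and bromodomain genes, under a first row with the 4 relatives of *Baz2b*; each point is a gene, filled where its limma adjusted p was under 0.05, short bars are medians of a row, and the dashed line is the median of all genes tested, -0.13. The 4 filled points, *Chd1*, *Hltf*, *Kmt2a* and *Atad2*, lie between 1.27 and 2.64, and the medians of the 5 lists lie between -0.32 and 0.65.

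Markers of other cells of the preparation moved with age beside these values. Over all genes tested, 7.86% passed an adjusted p of 0.05 with limma and 39.4% did not overlap between the ages. All 5 tested stellate and mesenchymal genes were higher at 12 months, with 1 past an adjusted p of 0.05 (*Pdgfrb*) and a summed linear level of 25344 to 64939 against 9741 to 17011 at 3 months; *Thy1* was below background at 12 months. All 10 tested nerve and Schwann cell genes were lower, with 3 past the test (*Sox10*, *Prph* and *Mbp*) and a summed level of 3701 to 5272 against 9142 to 13182; *Cdh19* was below background at both ages. The summed level of 5 duct genes was 38144 to 57177 against 26650 to 33124, and that of 6 hormone genes 1909818 to 1989778 against 1504162 to 1682770, with 0 past the test in either list (each 1 at an unadjusted p under 0.05). Of 8 tested beta cell genes, 6 were higher and 2 lower, with 2 past the test, both higher. These were *Slc2a2* (difference 4.11, limma adjusted p = 0.00369) and *Slc30a8* (difference 3.71, limma adjusted p = 0.00904). The summed level of the 8 genes was 1052591 to 1198036 against 829016 to 970490. That list shares *Ins1*, *Ins2* and *Iapp* with the hormone genes. Summed levels of acinar, immune, endothelial and red blood cell genes overlapped between the ages. Of 5 endothelial genes 0 passed the test with limma, and 3 did not overlap and had an unadjusted p under 0.05. Their differences were -2.11 for *Cdh5*, -1.14 for *Tek* and 1.23 for *Pecam1*. *Cdh5* was below background at 12 months and passed the filter only through the 3-month arrays. The part of these cells in the values of *Baz2b*, its relatives and the wider lists was not tested.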

How the data were processed

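Intensity values were read from the deposited scanner output of Agilent Feature Extraction 11.0.1.1, in which the background of each spot had been subtracted and arrays had not been normalized to each other. A table by the authors gives log2 values of 12145 probes, which followed the values computed here with r of at least 0.9996 across probes on each array and served as an alternative. Groups came from the labels. The study gives 3 rats and 3 arrays of each age, but the labels tie no array to a rat, so p-values measure only the spread between these arrays, which may be technical. Arrays have no read depth, and their number limits the precision.

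Spots of 1 probe were averaged on the log2 scale and the 24684 non-control probes were quantile normalized. Probes well above background on at least 3 of 6 arrays were kept, and 17941 were compared between ages in R 4.3.3 by limma 3.58.1 (two-sided moderated test by lmFit and eBayes, without a block). Adjusted p-values are Benjamini-Hochberg values over all of these probes. An exact permutation test of 3 arrays against 3 cannot give a p under 0.1. RefSeq accessions of the probes, without versions, were looked up in the GRCr8 gene table. The array was designed on rn4, and probe coordinates are not given. Of 24684 probes, 14294 had 1 gene symbol and 10390 none. Each gene was read from its probe with the highest mean. Scripts ran in Python 3.11.15 and the fit was tested on simulated data.

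All members were named. Of each wider list, up to 4 genes per direction past an adjusted p of 0.05 were named, or the 2 with the smallest p where none passed. The 5 genes most like *Baz2b* were named by Pearson r. The members and lists were chosen with earlier results of these data known, and *Arid1a*, *Baz2b*, *Chd1* and *Crebbp* stand in the study's own tables of changed genes. Fold changes and p-values that the authors computed were not used.

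The labels number the arrays, except 12-month array 3. The labels name no pairs, so the main fit used no pairing. Deviations from the group means correlated at -0.01 and -0.311 between arrays of the same number, and at -0.26 between the remaining arrays. Between arrays of unlike number the correlations ran from -0.208 to 0.356. Without named pairs these values cannot show whether arrays were paired. The study's tables name a paired t-test without naming pairs, and its methods a Student's t-test, called here the methods' t-test. The alternatives were a 75th percentile shift, normexp with an offset of 50, the authors' table, 2 other filters, variance and weight settings, blocks by number, the methods' t-test, and each array left out.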

Additional observations from a re-analysis of the deposited data

How the results depend on the processing

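For *Baz2b*, normexp gave 2.46 against 5.44, and the other 16 of 17 alternatives moved the difference by less than the spread between arrays. Several of these could not move it. Settings that change only the filter, the variances, the block of 3 pairs or the test left the difference at 5.44, which says nothing of stability. Without single arrays it was 5.14 to 5.70. With all 6 arrays required above background it was not kept. The 4 relatives gave 0 calls under all 18 alternatives, which says nothing of stability for the paired t-test and the replicate block of pairs 1 and 2, where 0 of all genes passed, and little for the block of 3 pairs, where 46 did. *Baz2a* changed sign with the 75th percentile shift (-0.22), and ranged from -0.30 to 0.35 without single arrays. *Smarca5* changed sign in the replicate block of numbered pairs 1 and 2 (0.06), and ranged from -0.49 to 0.02 without single arrays. *Smarca2* and *Smarca4* kept their signs.

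The wider lists gave 4 calls as reported, 3 to 5 with the shift, normexp, the authors' table or the other filters, 7 with an intensity trend and robust variances, 16 with array weights, whose estimation stopped before converging, and 10 with gene-by-gene array weights, chosen after seeing the data. They gave 0 with the replicate block of 3 pairs, 0 with numbered pairs only, 0 with the methods' t-test and 0 with the paired t-test that the study's tables name, run after seeing the data with the unnumbered array paired by elimination, and 0 to 5 without single arrays. Over all genes, 880 calls became 3330 with array weights, 267 with the methods' t-test and 46 with the block of 3 pairs, and 121 to 1142 without single arrays. The threshold used in the study was an unadjusted p under 0.05 and a fold above 2. With limma, 9 of 61 wider genes and 0 of 4 relatives passed it, beside 2181 of 11201 genes tested. With the methods' t-test 5 and 0 passed it, beside 1586 of 11148 genes. The causes were not tested.

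A scan block could not be fitted, since each age lay in 1 scan, and each member had 1 probe, so no other probe was tried. The 3-month background limits the fold of *Baz2b* and *Gnai1*. For *Chd1* detection is a limit at both ages, with 2 of 3 arrays well above background at 12 months and 1 of 3 at 3 months. The lowest level well above background was itself higher on the 12-month arrays (4.26 to 5.13) than on the 3-month arrays (2.89 to 3.17). The part of that gap in the *Chd1* difference was not tested.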
